A study of Mus musculus with 25 samples.

Results

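Nos2, Lipg, Prok2, Wfdc17, Fignl2 and Gnb5 were followed across bone marrow neutrophils with and without the tyrosine phosphatase Ptpn6 (SHP-1). They are 6 of the 35741 gene symbols in the table and were chosen because they stood among the largest rises when Ptpn6 was deleted in neutrophils that lacked Mlkl. Their levels in Mlkl-/- Ptpn6∆PMN and Mlkl-/- libraries are therefore a description and support nothing. Tests are given only for comparisons between groups that the choice did not use. The fit behind these tests took its filter, normalization and spread from 23 libraries, the Mlkl-/- Ptpn6∆PMN and Mlkl-/- libraries among them. With Ptpn6 deletion in Ripk3-/- neutrophils, the fitted values of the 5 genes other than Nos2 were 5.18-fold to 9.24-fold higher, where 50.4% of all genes lay higher. The groups overlapped for Lipg and Gnb5, and none of the 5 passed the adjusted threshold there. Nos2 passed the filter on low counts only through libraries with the deletion and is described only. These sizes rest in large part on single libraries, as given below.

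The series holds 25 bulk messenger RNA libraries (100 bp paired reads) of neutrophils from female C57BL/6J mice aged 6 to 13 weeks. With Ptpn6 deleted, there were Casp8∆PMN Ptpn6∆PMN (1 library, the only library labelled inflamed), Casp8∆PMN Mlkl-/- Ptpn6∆PMN (2 libraries) and Ripk3-/- Mlkl-/- Casp8∆PMN Ptpn6∆PMN (2). The further groups with the deletion were Mlkl-/- Ptpn6∆PMN (2), Ripk3-/- Ptpn6∆PMN (3) and Ripk3-/- Mlkl-/- Ptpn6∆PMN (3). Their references with intact Ptpn6 were Mlkl-/- (3), Ripk3-/- (3), Ripk3-/- Mlkl-/- (2) and wild-type (3). Ripk3-/- and Mlkl-/- denote null genotypes, and ∆PMN is read here as a deletion aimed at neutrophils (polymorphonuclear cells), since the labels give no further description of the alleles. The Cre driver is not given in the sources used here. No library carried a conditional deletion with intact Ptpn6, so loss of Ptpn6 cannot be told apart from the Cre or from DNA carried with the targeted allele. The labels do not say that replicates came from separate animals, so p-values measure the spread between these samples, which may be technical.

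SHP-1 removes phosphate from tyrosine residues and dampens signalling downstream of inhibitory receptors and cytokine receptors in myeloid cells. Ripk3 and Mlkl are the kinase and the membrane effector of necroptosis, and caspase-8 is the protease that drives apoptosis and restrains necroptosis. Nos2 is inducible nitric oxide synthase, an enzyme that turns arginine into nitric oxide and is classically switched on in phagocytes by microbial products and interferon-gamma. Lipg is endothelial lipase, a secreted phospholipase of high-density lipoprotein. Prok2 (prokineticin 2, Bv8) is a small secreted ligand of G protein-coupled receptors that mouse myeloid cells make in response to G-CSF. Wfdc17 is a secreted WAP-domain protein of activated mouse macrophages and microglia, Fignl2 is an AAA ATPase of the fidgetin family that acts on microtubules, and Gnb5 is the G protein beta subunit that pairs with the R7 class of RGS proteins.

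Every level below is in CPM, counts per 1000000 of the effective library size, which is not scaled to gene length, so levels are compared within a gene. Library totals ran from 21598063 to 23187557 estimated counts. Ptpn6 itself stood at 120 to 314 CPM in the 13 libraries labelled Ptpn6∆PMN and at 490 to 707 CPM in the 11 labelled with intact Ptpn6, with no overlap. A further library whose title and genotype label disagree had 582 CPM of Ptpn6 and was placed in no group. The cells came from the interface of 68% and 78% Percoll, with no sorting step described, and all 12 neutrophil markers were detected in every library, at a summed 65939 to 153873 CPM. Because these are bulk samples, fewer cells of a type and less RNA per cell cannot be told apart.

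The promoters of the genes whose levels moved together are shown for 4 of the 6 with a matching entry, beside that of Wfdc18, the neighbour of Wfdc17. Each window runs from 250 bases before to 50 after the RefSeq start in GRCm38.p6, 5′ to 3′ on the gene's strand. For Fignl2 the start in the promoter table lies inside the gene's annotated span and not at its outer end, so that window is an internal one. Capitals mark matches to AP-1 (TGANTCA), the E-box CACGTG or TATAA on either strand, so that overlapping TATAA matches on both strands appear as TTATAA.
Prok2, chr6:99726343-99726642, minus strand: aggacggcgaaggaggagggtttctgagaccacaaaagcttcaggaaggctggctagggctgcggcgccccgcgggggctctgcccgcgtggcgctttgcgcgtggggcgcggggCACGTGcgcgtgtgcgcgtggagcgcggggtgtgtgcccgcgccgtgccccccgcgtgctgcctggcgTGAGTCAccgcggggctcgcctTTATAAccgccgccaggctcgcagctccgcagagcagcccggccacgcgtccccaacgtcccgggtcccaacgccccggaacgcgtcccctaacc
Wfdc17, chr11:83703806-83704105, plus strand: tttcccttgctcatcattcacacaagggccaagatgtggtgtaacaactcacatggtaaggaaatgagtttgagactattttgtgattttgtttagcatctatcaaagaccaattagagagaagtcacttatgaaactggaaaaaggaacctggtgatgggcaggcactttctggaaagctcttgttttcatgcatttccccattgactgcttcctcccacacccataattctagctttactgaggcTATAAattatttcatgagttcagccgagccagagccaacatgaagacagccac
Wfdc18, chr11:83708754-83709053, plus strand: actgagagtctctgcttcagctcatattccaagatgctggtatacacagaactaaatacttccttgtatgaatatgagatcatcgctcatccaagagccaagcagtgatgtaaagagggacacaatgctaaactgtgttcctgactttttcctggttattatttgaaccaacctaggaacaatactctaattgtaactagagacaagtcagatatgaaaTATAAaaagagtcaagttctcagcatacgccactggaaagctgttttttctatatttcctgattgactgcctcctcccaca
Fignl2, chr15:101054350-101054649, minus strand: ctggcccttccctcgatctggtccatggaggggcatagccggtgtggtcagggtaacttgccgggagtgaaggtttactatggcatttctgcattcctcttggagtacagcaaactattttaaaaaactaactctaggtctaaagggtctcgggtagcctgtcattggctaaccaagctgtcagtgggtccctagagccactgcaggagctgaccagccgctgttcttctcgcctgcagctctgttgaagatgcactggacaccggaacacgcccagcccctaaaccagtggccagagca
Gnb5, chr9:75306038-75306337, plus strand: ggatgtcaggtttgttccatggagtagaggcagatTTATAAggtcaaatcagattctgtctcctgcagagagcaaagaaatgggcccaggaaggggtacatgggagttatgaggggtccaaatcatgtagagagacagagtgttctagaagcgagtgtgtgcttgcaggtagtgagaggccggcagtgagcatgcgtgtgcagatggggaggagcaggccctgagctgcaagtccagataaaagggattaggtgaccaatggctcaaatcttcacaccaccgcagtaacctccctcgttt
In the Prok2 window the AP-1 match began at position -67, the E-box at -135 and TATAA at -44, counted from the start. TATAA began at -3 in Wfdc17, -31 in Wfdc18 and -214 in Gnb5, and no searched motif matched in the internal Fignl2 window. Of 32851 promoter windows of this length, 7.81% held TGANTCA, 7.15% CACGTG and 24.9% TATAA. Matches to the kappa B motif, C/EBP (TTGCNNAA), STAT (TTCNNNGAA), PU.1 (GAGGAAGT) and the interferon response motif, present in 1.63%, 10.8%, 8.30%, 3.20% and 3.44% of windows, were found in none of these 5. A match is a description of letters and no evidence that a factor bound.

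By position in RefSeq annotation of GRCm38.p6, Nos2 lies at chr11:78920787-78960226 and Wfdc17 at chr11:83704056-83706269, both on the plus strand. Lipg lies at chr18:74939322-74961263 and Fignl2 at chr15:101050192-101078584 on the minus strand, and Gnb5 at chr9:75306288-75345923 on the plus strand. Prok2, at chr6:99711299-99726392 on the minus strand, is the only member on the chromosome of Ptpn6, at a gap of 24.99 Mb. The plus-strand noncoding gene Gm26748 starts 0.393 kb from Prok2 in RefSeq and overlaps it in the GENCODE annotation, and Prok2 transcripts share no 31-base word with it or any other gene. Over all libraries Gm26748 held 1476 counts, and it stood at 2.50, 8.98 and 3.39 CPM in Ripk3-/- Ptpn6∆PMN libraries, against 1.39, 0.977 and 1.03 CPM in Ripk3-/- libraries. Of the 3164 different 31-base words in Gnb5 transcripts, 234 (7.40%) also occur in transcripts of other genes, 218 of them in Gm19531 on the opposite strand, so Gnb5 counts are uncertain to that extent. The transcripts of the other 5 genes shared no 31-base word with another gene, and the estimated counts of these 5 were whole within 0.001 in every library, while those of Gnb5 were fractional in 21 of 25.

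Nos2 was nearly silent wherever Ptpn6 was intact. It had 60 and 775 counts (3.24 and 39.8 CPM) in Mlkl-/- Ptpn6∆PMN libraries, against 2, 4 and 7 counts (0.0839, 0.186 and 0.330 CPM) in Mlkl-/- libraries. In Ripk3-/- Ptpn6∆PMN libraries it had 6, 179 and 31 counts (0.231, 8.73 and 1.27 CPM), against 1, 0 and 0 counts in Ripk3-/- libraries. The Ripk3-/- groups did not overlap, and replicate 2 held 179 of the 216 counts of its group. The ratio of pooled Nos2 counts per library total was 216 (95% interval 38.4 to 8581) for Ripk3-/- Ptpn6∆PMN over Ripk3-/-. This interval and those below take pooled counts as the unit. They cover counting error only and not the spread between libraries. In Ripk3-/- Mlkl-/- Ptpn6∆PMN libraries there were 5, 10 and 7 counts of Nos2, against 0 and 4 in Ripk3-/- Mlkl-/- libraries, a pooled ratio of 3.64 (1.23 to 14.5). With Casp8 deleted as well, Ripk3-/- Mlkl-/- Casp8∆PMN Ptpn6∆PMN libraries had 13 and 4 counts, against the same 0 and 4 (ratio 4.34, 1.41 to 17.7). At these depths a few counts separate the 2 Mlkl-deficient Ripk3-/- groups with Ptpn6 deletion from their reference. Casp8∆PMN Mlkl-/- Ptpn6∆PMN libraries stood at 0.302 and 0.725 CPM and wild-type libraries at 0, 0.295 and 0.0398 CPM.

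Lipg lay between 2.51 and 7.82 CPM in every library with intact Ptpn6. It was at 67.0 and 282 CPM in Mlkl-/- Ptpn6∆PMN libraries, against 3.44, 2.51 and 4.38 CPM in Mlkl-/- libraries. Ripk3-/- Ptpn6∆PMN libraries had 4.05, 115 and 27.3 CPM, against 4.67, 7.82 and 3.25 CPM in Ripk3-/- libraries. Replicate 1 of the deleted group lay inside the range of Ripk3-/-, so those groups overlapped, while replicates 2 and 3 lay above it. In Ripk3-/- Mlkl-/- Ptpn6∆PMN libraries Lipg had 6.37, 15.6 and 17.3 CPM, against 3.95 and 5.23 CPM in Ripk3-/- Mlkl-/- libraries, with no overlap. Adding the Casp8 deletion, Ripk3-/- Mlkl-/- Casp8∆PMN Ptpn6∆PMN libraries had 18.2 and 22.4 CPM, and Casp8∆PMN Mlkl-/- Ptpn6∆PMN libraries had 40.8 and 38.9 CPM. Wild-type libraries were at 5.17, 5.64 and 5.21 CPM, the narrowest spread of any group of 3 for this gene.

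Prok2 and Wfdc17, which encode secreted proteins, were detected in every library, also without the deletion. Prok2 was at 236 and 536 CPM in Mlkl-/- Ptpn6∆PMN libraries, against 34.5, 81.6 and 41.0 CPM in Mlkl-/- libraries. In Ripk3-/- Ptpn6∆PMN libraries it was at 80.9, 436 and 157 CPM, against 40.6, 44.5 and 44.9 CPM in Ripk3-/- libraries. Even the lowest deleted library of that pair lay above its reference. In Ripk3-/- Mlkl-/- Ptpn6∆PMN libraries Prok2 was at 47.4, 33.5 and 125 CPM, against 33.1 and 29.7 CPM in Ripk3-/- Mlkl-/- libraries, so replicate 2 of the deleted group lay only just above the reference. Ripk3-/- Mlkl-/- Casp8∆PMN Ptpn6∆PMN libraries had 64.1 and 99.5 CPM and Casp8∆PMN Mlkl-/- Ptpn6∆PMN libraries 152 and 168 CPM, against 46.5, 41.0 and 51.3 CPM in wild-type libraries.

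Wfdc17 was detected in every library. It was at 316 and 573 CPM in Mlkl-/- Ptpn6∆PMN libraries, against 46.6, 74.9 and 109 CPM in Mlkl-/- libraries. Ripk3-/- Ptpn6∆PMN libraries had 85.5, 802 and 348 CPM, against 32.9, 75.8 and 69.3 CPM in Ripk3-/- libraries. The groups did not overlap, although replicate 1 of the deleted group lay close to the reference. For Wfdc17, Ripk3-/- Mlkl-/- Ptpn6∆PMN libraries had 98.3, 109 and 184 CPM and Ripk3-/- Mlkl-/- Casp8∆PMN Ptpn6∆PMN libraries 340 and 256 CPM, against 49.0 and 90.4 CPM in Ripk3-/- Mlkl-/- libraries. Casp8∆PMN Mlkl-/- Ptpn6∆PMN libraries had 234 and 428 CPM and wild-type libraries 44.7, 48.3 and 55.4 CPM.

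The intracellular genes Fignl2 and Gnb5 had similar orders of groups. Fignl2 was at 3.45 and 7.91 CPM in Mlkl-/- Ptpn6∆PMN libraries, against 0.503, 0.512 and 0.565 CPM in Mlkl-/- libraries. In Ripk3-/- Ptpn6∆PMN libraries it was at 0.694, 5.85 and 4.46 CPM, against 0.369, 0.595 and 0.685 CPM in Ripk3-/- libraries, so replicate 1 cleared the reference range only just. In the double knockout the picture was different. Fignl2 had 0.730, 0.572 and 1.71 CPM in Ripk3-/- Mlkl-/- Ptpn6∆PMN libraries, against 0.930 and 1.32 CPM in Ripk3-/- Mlkl-/- libraries, which overlapped. Ripk3-/- Mlkl-/- Casp8∆PMN Ptpn6∆PMN libraries had 2.18 and 2.32 CPM and Casp8∆PMN Mlkl-/- Ptpn6∆PMN libraries 2.07 and 4.35 CPM, against 0.313, 0.631 and 0.438 CPM in wild-type libraries.

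Gnb5 was at 15.6 and 22.3 CPM in Mlkl-/- Ptpn6∆PMN libraries, against 1.22, 2.19 and 3.67 CPM in Mlkl-/- libraries. Ripk3-/- Ptpn6∆PMN libraries had 1.81, 22.5 and 9.41 CPM, against 1.56, 2.72 and 1.88 CPM in Ripk3-/- libraries. Replicate 1 of the deleted group again lay within its reference. Ripk3-/- Mlkl-/- Ptpn6∆PMN libraries had 2.50, 4.13 and 5.85 CPM of Gnb5 and Ripk3-/- Mlkl-/- Casp8∆PMN Ptpn6∆PMN libraries 6.23 and 9.38 CPM, against 2.93 and 1.83 CPM in Ripk3-/- Mlkl-/- libraries. Casp8∆PMN Mlkl-/- Ptpn6∆PMN libraries had 10.2 and 10.6 CPM and wild-type libraries 2.54, 2.95 and 1.91 CPM. Among the 6 genes the order of group means was nearly shared. Mlkl-/- Ptpn6∆PMN and the single Casp8∆PMN Ptpn6∆PMN library held the first and second places for every gene, Ripk3-/- Ptpn6∆PMN the third, Casp8∆PMN Mlkl-/- Ptpn6∆PMN the fourth and Ripk3-/- Mlkl-/- Casp8∆PMN Ptpn6∆PMN the next. Neighbours in that order mostly overlapped in range, but Casp8∆PMN Mlkl-/- Ptpn6∆PMN lay above Ripk3-/- Mlkl-/- Casp8∆PMN Ptpn6∆PMN without overlap for Lipg, Prok2 and Gnb5.

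**Figure D1:**
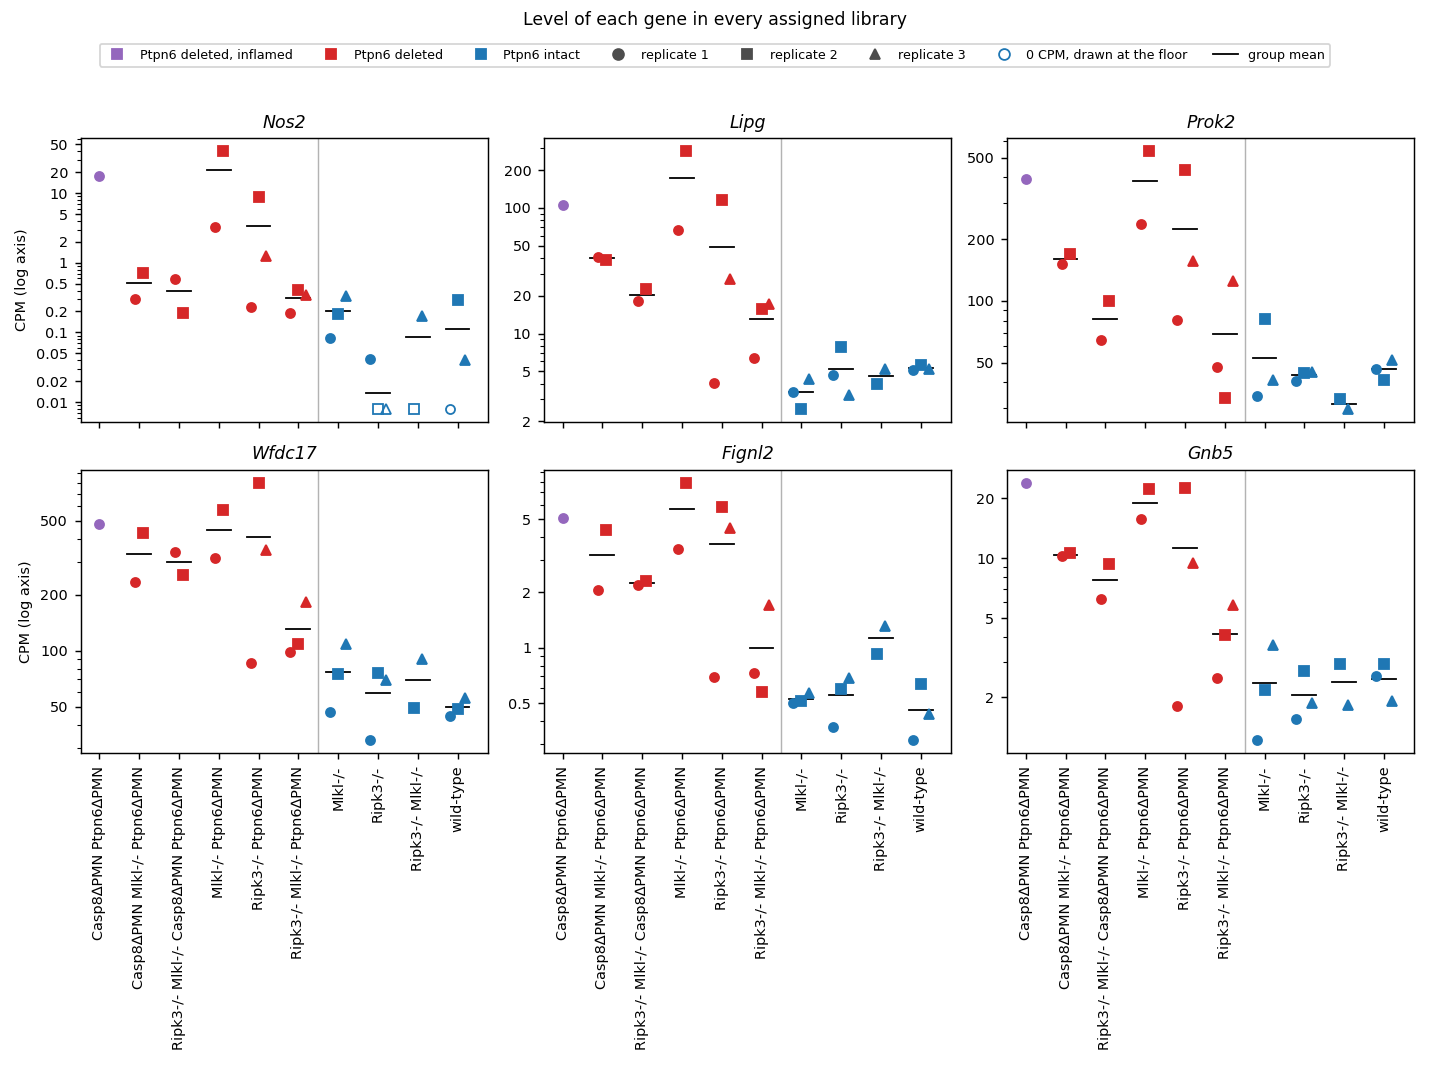
CPM of each gene (log axis, 1 panel per gene) in the 24 assigned libraries, grouped by genotype, with groups that carry the Ptpn6 deletion left of the grey line and groups with intact Ptpn6 right of it; black bars are group means and open symbols are libraries at 0 CPM, drawn at the foot of the axis. Nos2 spans 0 to 39.8 CPM and Wfdc17 spans 32.9 to 802 CPM, and replicate 1 (circle) of Ripk3-/- Ptpn6∆PMN sits near the blue points in every panel.

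In the comparison that chose the genes, Mlkl-/- Ptpn6∆PMN over Mlkl-/-, the fitted log2 changes were 6.74 for Nos2, 5.66 for Lipg, 3.42 for Fignl2, 3.01 for Gnb5, 2.88 for Prok2 and 2.53 for Wfdc17. They ranked 1, 2, 8, 9, 12 and 17 by size among the 160 genes called higher, which were 0.987% of 16206 genes tested at a Benjamini-Hochberg adjusted p under 0.05 by edgeR. Nothing is read from that count for these genes. Between Lipg and Fignl2 came Sncaip (4.39), Gpr15 (4.31), Kcnn3 (4.04), Fam20c (3.77) and Ap1s1 (3.50), and directly after Wfdc17 came Wfdc18 (2.53). The 6 genes are thus a selection from the top of that list and not its first 6.

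Ptpn6 deletion in Ripk3-/- neutrophils was the closest comparison between groups that the choice did not use, with 3 libraries on each side. Lipg, Prok2, Wfdc17, Fignl2 and Gnb5 lay higher with the deletion, as did 50.4% of all genes. By edgeR's quasi-likelihood test the log2 change was 3.21 for Lipg (SE 0.77), 2.79 for Wfdc17 (SE 0.57), 2.72 for Fignl2 (SE 0.60), 2.45 for Gnb5 (SE 0.59) and 2.37 for Prok2 (SE 0.53). The fitted value for Nos2 was 7.43 (SE 1.68) and rests on a single count in Ripk3-/-. Nos2 passed the filter on low counts only through libraries with the deletion, so its fitted values here and below are descriptions only. None of the 5 was called over all genes, with edgeR adjusted p from 0.137 for Wfdc17 to 0.262 for Gnb5. Only 1 of 16206 genes (0.00617%) was called higher and 2 lower in this comparison. At an unadjusted p under 0.05 stood these 5 genes and 892 of all genes tested, and the p of Wfdc17 had rank 9. Lipg, Prok2 and Wfdc17 were already known from earlier results of these data to keep their sign in this background, so their direction is not fully independent. The groups did not overlap for Prok2, Wfdc17 and Fignl2, against 3.78% of all genes higher without overlap. Whether these 5 genes were called depended on the libraries kept, on the filter and on the method. Without replicate 1 of Ripk3-/- Ptpn6∆PMN, the lowest library of its group for every gene, edgeR called the 5 (adjusted p 0.0023 to 0.0103) among 156 in all. The log2 changes were then 3.76 for Lipg, 2.95 for Gnb5 and 2.77 for Prok2. Without replicate 2 of the same group the log2 changes were 1.57 for Lipg, 1.45 for Gnb5, 1.45 for Prok2, 1.87 for Wfdc17 and 2.22 for Fignl2, with edgeR adjusted p between 0.805 and 0.998. With all libraries DESeq2 called the 5 (adjusted p 0.0029 to 0.0198). With no filter on low counts edgeR called 4 of them, all except Gnb5 (adjusted p = 0.0517).

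Several marker sums differed in level or spread between the groups of this comparison. Summed B cell markers (12 genes) were at 1687, 843 and 1152 CPM in replicates 1, 2 and 3 of Ripk3-/- Ptpn6∆PMN, against 1254 to 1677 CPM in Ripk3-/- libraries, and summed macrophage markers (13 genes) at 544 to 673 CPM, against 580 to 728 CPM. None of the 13 macrophage markers was called, and 3 of them lay lower at an unadjusted p. The 7 markers of neutrophil precursors were all higher, 3 of them at an unadjusted p, with sums of 463 to 776 CPM in Ripk3-/- Ptpn6∆PMN libraries, against 284 to 503 CPM in Ripk3-/- libraries. Summed neutrophil markers (12 genes) ran from 65939 to 128063 CPM in Ripk3-/- Ptpn6∆PMN libraries, against 90749 to 94457 CPM in Ripk3-/- libraries. Mature neutrophil markers (11 genes) ran from 29337 to 41589 CPM, against 30154 to 35418 CPM. Erythroid markers (13 genes) ran from 727 to 4829 CPM, against 2370 to 9936 CPM. No marker of these lists was at 0 in every library of a group. Their part in the result was not tested.

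**Figure D2:**
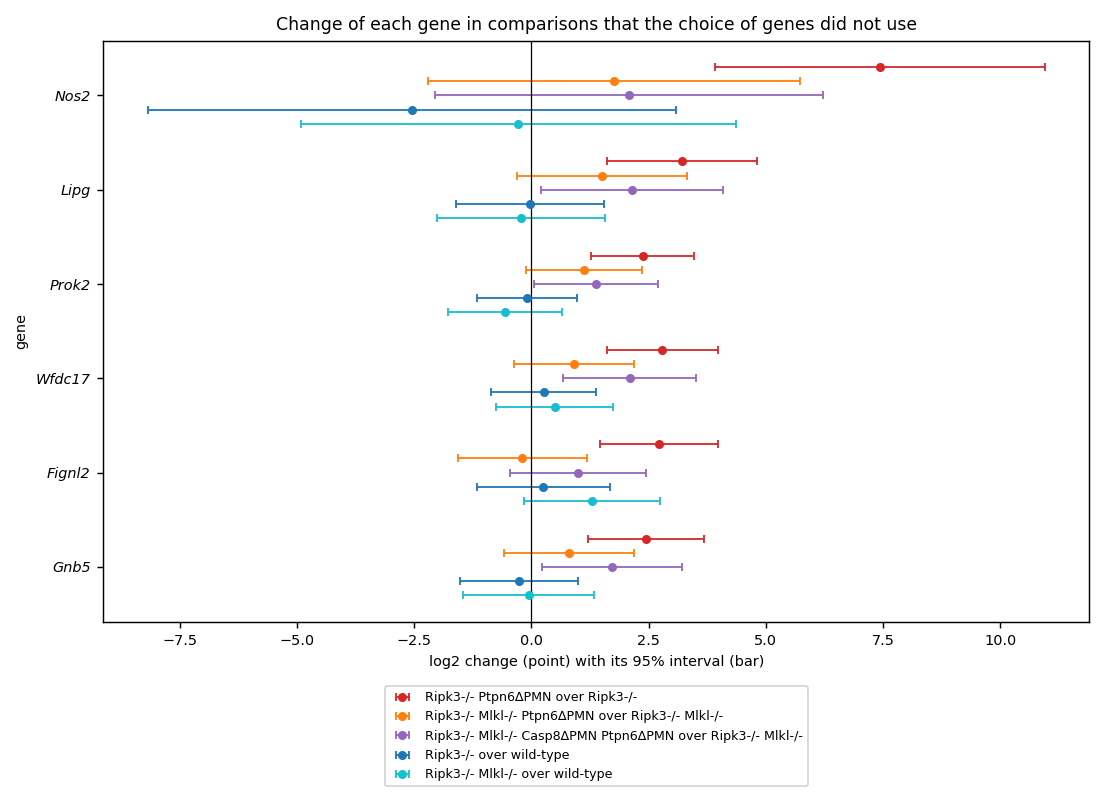
Fitted log2 change of each gene (points) with its 95% interval (bars) in 5 comparisons that the choice of genes did not use. For Ptpn6 deletion in Ripk3-/- neutrophils the intervals of the 5 genes other than Nos2 lie above 0, with points from 2.37 to 3.21. For the deletion in Ripk3-/- Mlkl-/- neutrophils the intervals of these 5 genes cross 0. Nos2 (7.43 in Ripk3-/-) is drawn for description only.

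The same deletion in Ripk3-/- Mlkl-/- neutrophils, which lack both necroptosis genes, gave smaller values. The log2 change was 1.51 for Lipg (SE 0.86, 95% interval -0.30 to 3.31), 1.13 for Prok2 (SE 0.59, -0.10 to 2.35) and 0.90 for Wfdc17 (SE 0.61, -0.38 to 2.18). It was 1.76 for Nos2 (SE 1.89) and 0.80 for Gnb5 (SE 0.66), and -0.19 for Fignl2 (SE 0.66), the only member not above 0, where 54.1% of all genes were. None of them reached an unadjusted p under 0.05, where 830 of all genes did, and the edgeR adjusted p ran from 0.846 to 0.957. In this comparison 1 gene (0.00617%) was called higher. Lipg, Prok2 and Wfdc17 were higher without overlap, as were 5.79% of all genes. Macrophage markers were at a summed 518 to 715 CPM in Ripk3-/- Mlkl-/- Ptpn6∆PMN libraries and 744 to 833 CPM in Ripk3-/- Mlkl-/- libraries, 10 of 13 lower at an unadjusted p, and their part in the result was not tested.

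Whether the deletion acted differently in the 2 backgrounds was tested directly. The change in Ripk3-/- Mlkl-/- minus that in Ripk3-/- was below 0 for the 5 genes other than Nos2 and for 47% of all genes, from -2.91 for Fignl2 to -1.25 for Prok2 on the log2 scale. For Fignl2 the difference was -2.91 (SE 0.88, unadjusted p = 0.00385) and for Wfdc17 -1.89 (SE 0.79, unadjusted p = 0.0282), both with an edgeR adjusted p of 0.998. No gene was called (0% lower), and 457 had an unadjusted p under 0.05. Averaged over both backgrounds, the change was 2.36 for Lipg (SE 0.58), 1.85 for Wfdc17 (SE 0.42), 1.75 for Prok2 (SE 0.40), 1.62 for Gnb5 (SE 0.45), 1.27 for Fignl2 (SE 0.45) and 4.59 for Nos2 (SE 1.33). Leaving out Nos2, these were above 0, as were 54.7% of all genes, and had an unadjusted p under 0.05, as had 1259 of all genes, but none was called by edgeR (adjusted p 0.205 to 0.497), beside 0.00617% of all genes called higher. DESeq2 called all of these except Fignl2 (adjusted p = 0.269), and edgeR with no filter on low counts called Prok2 and Wfdc17 (adjusted p = 0.0400 for each). Without replicate 1 of Ripk3-/- Ptpn6∆PMN edgeR called the 5 (adjusted p 0.0110 to 0.0462).

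Setting Ripk3-/- Mlkl-/- Ptpn6∆PMN against Ripk3-/- Ptpn6∆PMN, which share the deletion and differ in Mlkl, the members had lower fitted values without Mlkl, as had 45.9% of all genes. The log2 changes were -3.41 for Nos2 (SE 1.09), -1.89 for Lipg (SE 0.72), -1.88 for Fignl2 (SE 0.56), -1.71 for Prok2 (SE 0.51), -1.66 for Wfdc17 (SE 0.54) and -1.44 for Gnb5 (SE 0.56). Leaving out Nos2, whose value is a description only, each had an unadjusted p under 0.05 and an edgeR adjusted p of 1.00. No gene was called (0%), 482 had an unadjusted p under 0.05, and the groups overlapped for every member, while 2.1% of all genes were lower without overlap. These values rest largely on replicate 2 of Ripk3-/- Ptpn6∆PMN. Without it they were -1.24 for Nos2, -0.26 for Lipg, -1.38 for Fignl2, -0.79 for Prok2, -0.73 for Wfdc17 and -0.44 for Gnb5. These libraries also enter the comparisons above. Between groups with intact Ptpn6, no member had an unadjusted p under 0.05 in Ripk3-/- against wild-type, where 20 genes (0.123%) were called higher, or in Ripk3-/- Mlkl-/- against wild-type, where 127 (0.784%) were. Leaving aside Nos2, the largest of these values was for Fignl2, at 0.930 and 1.32 CPM in Ripk3-/- Mlkl-/- libraries, against 0.313, 0.631 and 0.438 CPM in wild-type libraries (log2 change 1.29, SE 0.69, edgeR adjusted p = 0.423), higher without overlap as were 19.2% of all genes. Prok2 was at 33.1 and 29.7 CPM in Ripk3-/- Mlkl-/- libraries, against 46.5, 41.0 and 51.3 CPM in wild-type libraries (log2 change -0.56, edgeR adjusted p = 0.702). The fit on those libraries alone called Prok2 lower (log2 change -0.57, edgeR adjusted p = 0.0385), among 833 genes called.

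Caspase-8 deletion was examined on top of Ptpn6 deletion. Set against Ripk3-/- Mlkl-/- libraries, Ripk3-/- Mlkl-/- Casp8∆PMN Ptpn6∆PMN libraries were higher without overlap for Lipg, Prok2, Wfdc17, Fignl2 and Gnb5, as were 20.1% of all genes with these groups of 2, and 48.4% of all genes had a change above 0. Wfdc17 was 4.28-fold higher (log2 change 2.10, SE 0.68, edgeR adjusted p = 0.450), Lipg had a log2 change of 2.14 (SE 0.92), Gnb5 of 1.71 (SE 0.71) and Prok2 of 1.38 (SE 0.63). These 4 had an unadjusted p under 0.05, as did 1301 of all genes. Nos2 (2.09, SE 1.97) and Fignl2 (1.00, SE 0.69) did not. No member was called, and 0.00617% of all genes were called higher. Erythroid markers (13 genes) were at a summed 1514 to 1571 CPM in Ripk3-/- Mlkl-/- Casp8∆PMN Ptpn6∆PMN libraries and 5069 to 10527 CPM in Ripk3-/- Mlkl-/- libraries, and their part in the result was not tested. Against Ripk3-/- Mlkl-/- Ptpn6∆PMN libraries, the same libraries had log2 changes of 0.26 to 1.19, all above 0 as were 44.2% of all genes, with Fignl2, Gnb5, Lipg and Wfdc17 higher without overlap (7.64% of all genes). No member and 750 of all genes had an unadjusted p under 0.05, no gene was called by edgeR (0%), and DESeq2 called 1 gene. Ripk3-/- Mlkl-/- Casp8∆PMN Ptpn6∆PMN against Casp8∆PMN Mlkl-/- Ptpn6∆PMN, which differ in Ripk3, gave log2 changes of -0.97 to -0.15, below 0 as were 50.1% of all genes, and no member at an unadjusted p under 0.05, with 0.00617% of all genes called lower.

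The order of libraries within a group was shared by all 6 genes in 2 of the 5 replicated groups with the deletion. In Ripk3-/- Ptpn6∆PMN, replicate 2 was highest and replicate 1 lowest for every gene, with Wfdc17 at 802 and 85.5 CPM in those libraries. In Mlkl-/- Ptpn6∆PMN, replicate 2 was highest for every gene, by 282 against 67.0 CPM for Lipg. In the other groups the genes split. In Casp8∆PMN Mlkl-/- Ptpn6∆PMN replicate 2 was highest for 5 genes and lowest for Lipg. In Ripk3-/- Mlkl-/- Casp8∆PMN Ptpn6∆PMN replicate 2 was highest for 4 genes and replicate 1 for Nos2 and Wfdc17. In Ripk3-/- Mlkl-/- Ptpn6∆PMN replicate 3 was highest for 5 genes, and the lowest library was replicate 1 for 4 genes and replicate 2 for Prok2 and Fignl2. Of the 11 deleted libraries that the choice of genes did not use, 10 lay above all 8 intact libraries not used for Wfdc17, 9 for Lipg, Prok2 and Gnb5, and 8 for Nos2 and Fignl2. Replicate 1 of Ripk3-/- Ptpn6∆PMN was among those that did not for every gene except Prok2, and replicate 1 of Ripk3-/- Mlkl-/- Ptpn6∆PMN for every gene except Wfdc17.

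Residual Ptpn6 RNA ran opposite to the 6 genes across deleted libraries. Replicate 1 of Ripk3-/- Ptpn6∆PMN, low for every gene, had 295 CPM of Ptpn6, and replicates 2 and 3 had 187 and 201 CPM. Mlkl-/- Ptpn6∆PMN libraries had 182 and 193 CPM, and the Casp8∆PMN Ptpn6∆PMN library 120 CPM. The 3 Ripk3-/- Mlkl-/- Ptpn6∆PMN libraries, where the members were lowest among deleted groups, had 255, 314 and 309 CPM, against 631 and 551 CPM in Ripk3-/- Mlkl-/- libraries. Over the 13 deleted libraries Spearman's rho with Ptpn6 was -0.90 for Gnb5, -0.87 for Lipg, -0.86 for Prok2, -0.84 for Fignl2, -0.75 for Wfdc17 and -0.70 for Nos2. Without the Mlkl-/- Ptpn6∆PMN libraries it ran from -0.88 for Fignl2 to -0.57 for Nos2 over 11 libraries. Over the 11 intact libraries it ran from -0.05 for Lipg to 0.80 for Gnb5. These values are descriptions, since the points share genotypes and preparations and fall into groups. The order did not hold inside every group. In Ripk3-/- Mlkl-/- Ptpn6∆PMN, replicate 1 had the lowest Ptpn6 and also the lowest Nos2, Lipg, Gnb5 and Wfdc17, and in Mlkl-/- Ptpn6∆PMN replicate 2 was highest for all 6 genes with the higher Ptpn6. Gene totals do not separate the deleted part of Ptpn6 from the rest, so the residual Ptpn6 counts do not give the share of cells without the deletion.

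**Figure D3:**
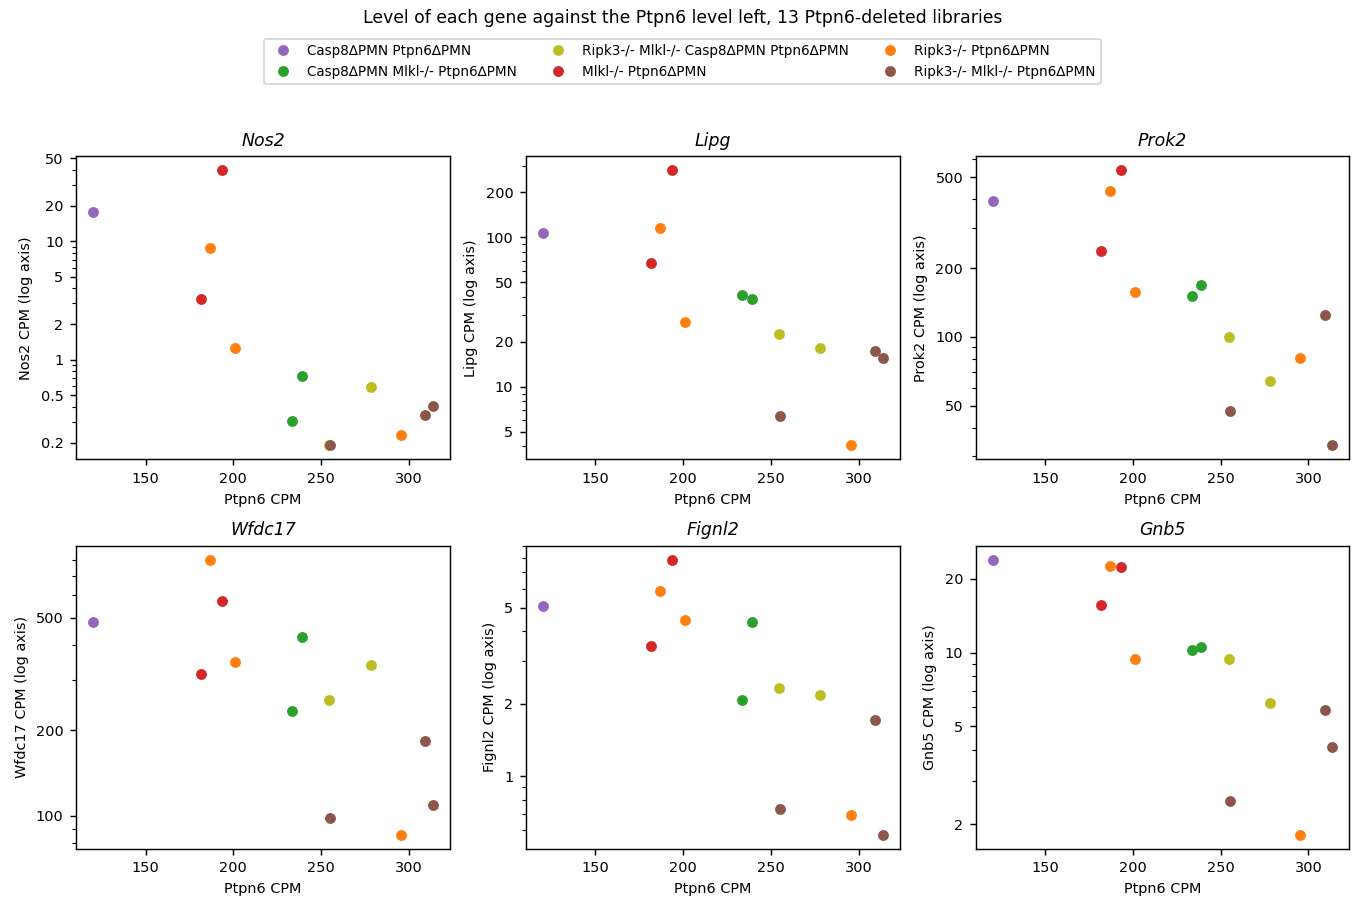
CPM of each gene (log axis) against CPM of Ptpn6 (linear axis) in the 13 Ptpn6∆PMN libraries, 1 point per library and 1 colour per genotype. Points fall toward the right in every panel, with Spearman's rho of -0.90 for Gnb5 and -0.70 for Nos2.

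Several marker sums varied along the same axis. Over the 13 deleted libraries rho between a member and summed neutrophil markers was 0.52 to 0.81, and 0.47 to 0.73 for summed mature neutrophil markers. For summed basophil and mast cell markers (9 genes) it was 0.63 to 0.87, for monocyte markers (10 genes) 0.38 to 0.65 and for macrophage markers 0.34 to 0.59. B cell markers had -0.58 to -0.36 and T and NK cell markers -0.66 to -0.53. Neutrophil precursor, erythroid and eosinophil markers had -0.27 to 0.20. In the comparison that chose the genes, basophil and mast cell markers were at a summed 2218 to 2321 CPM in Mlkl-/- Ptpn6∆PMN libraries, against 1013 to 1593 CPM in Mlkl-/- libraries. Summed neutrophil markers were at 137820 to 153873 CPM there, against 89321 to 104432 CPM, and summed monocyte markers at 1518 to 1553 CPM, against 1046 to 1081 CPM. In Ripk3-/- Ptpn6∆PMN libraries summed monocyte markers ran from 835 to 1574 CPM, against 961 to 1083 CPM in Ripk3-/- libraries. In Ripk3-/- Ptpn6∆PMN replicates 1, 2 and 3, summed basophil and mast cell markers were at 1059, 1773 and 1150 CPM, against 1283 to 1679 CPM in Ripk3-/- libraries. The part of the marker sums in the members' levels was not tested.

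Across deleted libraries the members followed each other closely. Over the 13 libraries the 15 pairs had Spearman's rho of 0.80 to 0.97, with a median of 0.90, and over the 11 not used for the choice 0.66 to 0.98, with a median of 0.87. Over the 11 intact libraries rho ran from -0.47 to 0.56, with a median of 0.07. Nos2 and Fignl2 have few counts in intact libraries, which limits rho there. Over all 25 libraries, other genes often had a higher rho with a member than a fellow member had. Among 11153 genes, fellow members ranked from 2 (Wfdc17 for Nos2) to 637 (Prok2 for Gnb5). These are descriptions across libraries that share genotypes.

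**Figure D4:**
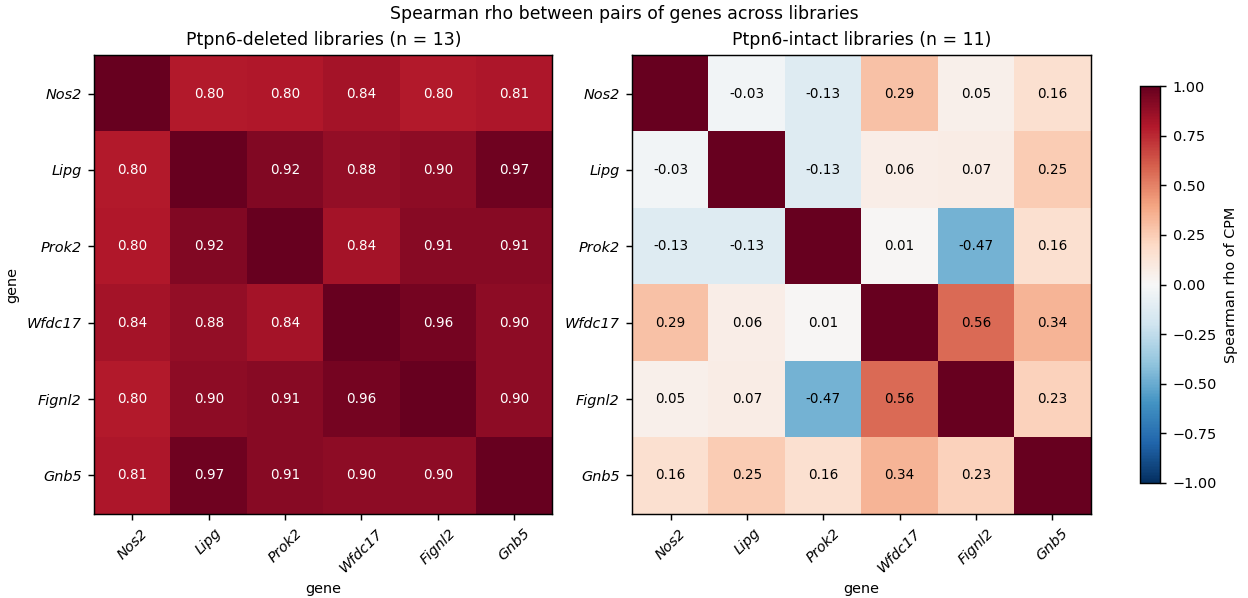
Spearman's rho between each pair of the 6 genes over the 13 Ptpn6∆PMN libraries (left) and the 11 libraries with intact Ptpn6 (right), coloured from -1 to 1. The left matrix holds values of 0.80 to 0.97 and the right one -0.47 to 0.56.

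Other genes had patterns close to those of the members. Among 11153 genes with a mean of at least 1 CPM, over all 25 libraries, the gene most like Wfdc17 was its neighbour Wfdc18, with a rho of 0.96. Wfdc18, also a WAP-domain gene, was at 0.848, 6.15 and 3.11 CPM in Ripk3-/- Ptpn6∆PMN libraries, against 0.205, 0.637 and 0.642 CPM in Ripk3-/- libraries, with no overlap (log2 change 2.75, SE 0.56). These libraries are among those over which Wfdc18 and the genes below were picked, so their changes are descriptions and no test. It starts 2.74 kb to the right of Wfdc17 on the same strand. The best local alignment of their longest transcripts, of 533 and 917 bases, had 181 identical positions of 230 (78.7%), and Wfdc17 transcripts shared no 31-base word with any other gene. Their promoter windows printed above aligned with 82 identical positions of 112 (73.2%).

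Fam20c, a kinase of secreted proteins, was the gene most like Nos2 (rho 0.88) and the second most like Fignl2 (0.89). It was at 3.93, 30.1 and 16.6 CPM in Ripk3-/- Ptpn6∆PMN libraries, against 3.03, 2.25 and 2.70 CPM in Ripk3-/- libraries, without overlap (log2 change 2.66, SE 0.56). Closest to Lipg was Mapk6 (rho 0.92), an atypical MAP kinase whose gene lies 40.9 kb to the right of Gnb5 and not near Lipg. Closest to Prok2 was Tgm1 (0.87), a transglutaminase, with a median of 41.4 CPM in deleted and 14.9 CPM in intact libraries. Closest to Fignl2 was Rnd1 (0.89), an atypical small GTPase, and closest to Gnb5 was Qsox1 (0.95), a sulfhydryl oxidase, with medians of 227 CPM in deleted and 121 CPM in intact libraries. Tlr1, a Toll-like receptor subunit, was among the genes most like Wfdc17 (0.93), with a log2 change of 1.71 (SE 0.43) for Ptpn6 deletion in Ripk3-/-. The other genes picked this way were Jak3 for Nos2 (rho 0.86), Tssc1 (0.91) and Lxn (0.89) for Lipg, Riok2 (0.87) and Tmem167 (0.87) for Prok2, Mta3 (0.93) for Wfdc17, Aldoc (0.88) for Fignl2, and Snx1 (0.95) and Mcam (0.94) for Gnb5. Wfdc17 itself was among the 3 genes most like Nos2 (0.87). Of these 18 places, 9 were filled by the same gene for the same member when CPM was taken over plain library totals.

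Some genomic neighbours were called in the comparison that chose the members. Of 60 neighbours, 10 for each member, 9 were called there in either direction, beside 1.51% of all genes. Wfdc18, Gm26748 and Mapk6 were among them. So was Nr4a1, which had a lower median in deleted (9.81 CPM) than in intact libraries (21.6 CPM). The members were chosen on these values, so the count is a description and supports nothing. In the other comparisons 1 of 60 was called, beside 1.09% of all genes called in at least 1 of them, and the comparisons of Ptpn6 deletion made almost no calls. That neighbour was Ccl3, a chemokine near Wfdc17, which was lower in Ripk3-/- Mlkl-/- against wild-type (log2 change -1.74, SE 0.38, edgeR adjusted p = 0.0302). Prok2 lies on chromosome 6 with Ptpn6. Ripk3, Mlkl and Casp8 lie on chromosomes 14, 8 and 1, which carry no member.

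Genes that work with each member were examined in Ptpn6 deletion in Ripk3-/-, where no gene of any of these lists was called. For nitric oxide, arginine and tetrahydrobiopterin metabolism, 12 of 16 genes were tested and none had an unadjusted p under 0.05, with a median log2 change of 0.08. Arg2, the mitochondrial arginase, had 0.05 (SE 0.21), and Pts, an enzyme of tetrahydrobiopterin synthesis, had -0.05. Of 16 regulators upstream of Nos2, all tested, 2 had an unadjusted p under 0.05, both with higher values. They were Tlr4, the endotoxin receptor (0.61), and Ifngr1, the ligand-binding chain of the interferon-gamma receptor (0.39). Jak1, a kinase that carries that receptor's signal, had -0.07.

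Of 18 genes for extracellular and intracellular lipases and their regulators, 16 were tested, with a median of -0.11. Scarb1, a receptor for high-density lipoprotein, had 1.03 at an unadjusted p under 0.05, and Abcg1, a cholesterol exporter, and Pnpla2, the adipose triglyceride lipase, had -0.72 and -0.44. Furin, a protease that cleaves secreted proteins, had 0.11. Of the other prokineticin genes only Prokr1, a receptor for Prok2, could be tested (-0.45, SE 0.56), at a mean of 1.44 CPM. The genes for the ligand Prok1 and the receptor Prokr2 had at most 3 counts in any library. For the WAP family, 5 of 12 genes were tested, all above 0, with a median of 1.16 beside 0.0024 for all genes. Wfdc18 (2.75) and Wfikkn1 (1.16) had an unadjusted p under 0.05, while the abundant members Slpi, a leukocyte protease inhibitor, and Wfdc21 had 0.05 and 0.38. The remaining tested gene of the family lay at or above the median.

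For the AAA ATPases related to Fignl2, 8 of 9 genes were tested, none at an unadjusted p under 0.05, with a median of 0.04. Vps4b, which disassembles ESCRT-III, had 0.02 and Katna1, the catalytic subunit of katanin, -0.02. Among G protein beta and R7 RGS genes 8 of 13 were tested, none at an unadjusted p under 0.05, with a median of 0.03. The abundant Gnai2 and Gnb2 had 0.13 and 0.14. Of 18 inflammatory genes 16 were tested, with a median of -0.07. Acod1, which makes itaconate, had 1.39, and Ccl3 and Il1rn, the interleukin-1 receptor antagonist, had -0.71 and -0.66, each at an unadjusted p under 0.05. Clec4e had 0.31 and Il1b, which encodes interleukin-1 beta, -0.17 (SE 0.40).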

How the data were processed

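Bone marrow neutrophil RNA was measured by messenger RNA sequencing in 25 libraries. The authors deposited 1 table of estimated counts per gene; Salmon 0.14.1, DESeq2 and the build GRCm38.p6 are named in the submitters' processing notes, while the summing of transcripts to genes and the strandedness are not given in the sources used here. Expected counts were rounded to whole numbers. CPM were counts per 1000000 of the library total times its TMM factor. Tests used edgeR 4.0.16 (quasi-likelihood, TMM, R 4.3.3) on 23 libraries in 9 groups with 14 residual degrees of freedom, after filterByExpr (minimum count 10, minimum total 15), which left 16206 genes, and Benjamini-Hochberg adjustment over all of them. All 6 genes passed the filter. Nos2 reached its 0.446 CPM in 6 of 12 deleted and 0 of 11 intact libraries, so it passed through the deleted ones. The single Casp8∆PMN Ptpn6∆PMN library and the library with conflicting labels entered no test. Calls were adjusted p under 0.05; groups did not overlap where every library of one lay above every library of the other. Alternatives were DESeq2 1.42.0, no filter, fits on the contrast's libraries, a block for the replicate number and fits without each library in turn. Scripts were tested on simulated data. Promoters and positions came from RefSeq (GRCm38.p6), and transcripts and overlaps between genes from the GENCODE annotation. Genes were named by a rule: the 3 with the highest Spearman's rho to each member over all libraries, predicted genes left out; of each list the genes called, or otherwise the 2 with the highest mean CPM; called neighbours among the 5 nearest tested genes on each side; and genes ranked next to the members. List genes at an unadjusted p under 0.05 and Gm26748 were named after their values were seen. One gene that the rule names is not reported here. The genes, lists and tests were chosen with earlier results of these data known. Whole-library depth was close between libraries, and intervals on counts cover counting error only.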

Additional observations from a re-analysis of the deposited data

Results flagged for a closer look

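The Casp8∆PMN Ptpn6∆PMN library, a single library and the only one labelled inflamed, entered no comparison. It stood above every library with intact Ptpn6 for all 6 genes, at 17.8 CPM of Nos2, 106 CPM of Lipg, 395 CPM of Prok2, 482 CPM of Wfdc17, 5.10 CPM of Fignl2 and 23.9 CPM of Gnb5. The difference was not tested, since the group has 1 library. Inflammation, genotype and library cannot be told apart. It also had the lowest Ptpn6 of all libraries, at 120 CPM, a summed 2041 CPM of basophil and mast cell markers and 679 CPM of B cell markers. The part of these markers in its levels was not tested.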

How the results depend on the processing

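Counts of called genes changed by over 1.5 times as follows. With no filter, Ptpn6 deletion called 20 genes in Ripk3-/- (3 with the filter), 3 in Ripk3-/- Mlkl-/- (1) and 13 averaged over both (3), the joint Casp8 and Ptpn6 deletion 4 (2), Ripk3-/- against wild-type 56 (37) and Ripk3 loss 2 (1). DESeq2 called 38, 4, 48, 11, 99 and 3 genes in these 6 comparisons, 447 in Ripk3-/- Mlkl-/- against wild-type (169 by edgeR), 1 for Casp8 deletion (0) and 2 for Mlkl loss (0). Fits on the contrast's own libraries called 1 for Ptpn6 deletion in Ripk3-/-, 182 for Ripk3-/- and 833 for Ripk3-/- Mlkl-/- against wild-type and 3 for Ripk3 loss. The filter then kept Nos2 only in the average over both backgrounds, in their difference and in Ripk3 loss, and dropped it from every other comparison. Leaving out each library gave 3 to 156 calls for Ptpn6 deletion in Ripk3-/-, 1 to 18 in Ripk3-/- Mlkl-/-, 3 to 99 averaged, 0 to 7 for their difference, 1 to 8 for the joint deletion, 0 to 1 for Casp8 deletion, 23 to 38 for Ripk3-/- and 19 to 85 for Ripk3-/- Mlkl-/- against wild-type, 1 to 2 for Ripk3 loss and 0 to 1 for Mlkl loss. Correlations of same-numbered libraries were -0.021, -0.048 and -0.125 for Ptpn6 deletion in Ripk3-/-, 0.252, -0.097 and -0.058 for Ripk3-/- against wild-type and 0.386, -0.354 and -0.434 for Mlkl loss. With 3 pairs, no comparison thus had every pair above 0.1, and the 0.212 and 0.190 of Ripk3-/- Mlkl-/- against wild-type come from 2 pairs, so the numbers were not taken to pair samples. With a replicate block Ripk3-/- Mlkl-/- against wild-type called 101 genes, and the sign turned for Fignl2 in Ripk3-/- Mlkl-/- (0.11) and for Nos2 (0.10) and Wfdc17 (0.018) under Ripk3 loss. Uncalled values that changed sign when a library was left out ranged from -0.78 to 0.091 (Fignl2, Ptpn6 deletion in Ripk3-/- Mlkl-/-), -0.43 to 0.23 (Lipg, Ripk3-/- against wild-type), -4.36 to 1.89 (Nos2), -0.43 to 0.25 (Gnb5) and -0.016 to 0.87 (Wfdc17) for Ripk3-/- Mlkl-/- against wild-type, -0.10 to 1.01 (Prok2) and -0.70 to 0.91 (Nos2) for Casp8 deletion, and -1.39 to 0.37 (Nos2), -0.52 to 0.35 (Wfdc17) and -0.95 to 0.12 (Fignl2) for Ripk3 loss. The causes were not tested. Depth limits Nos2, at 0 to 7 counts in every intact library.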

Other observations

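The library whose title and genotype label disagree had 0.0439 CPM of Nos2, 2.77 CPM of Lipg, 43.8 CPM of Prok2, 66.1 CPM of Wfdc17, 0.747 CPM of Fignl2 and 2.06 CPM of Gnb5, beside 582 CPM of Ptpn6. Each of these 7 values lies within the range of the 11 libraries with intact Ptpn6. It was used in no comparison.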
